A study of Mus musculus with 14 samples.

Results

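Matrix proteases and their inhibitors were followed as 10 transcripts in mouse macrophages that had entered the inflamed central nervous system. The set was chosen by gene symbol, as the rows named Mmp8, Mmp9, Mmp12, Mmp13, Mmp14, Mmp19, Adam8, Plau, Timp1 and Timp2, and all 10 were found among the 19940 rows of the table. The macrophages were monocyte-derived and were sorted when experimental autoimmune encephalomyelitis, which models multiple sclerosis in mice, was at its peak, from lethally irradiated hosts that carried a 50:50 mixture of donor bone marrow. The mCAT libraries (7) came from CD45.2 donors of genotype CCR2creERT2/+ mcat lsl/wt, which join a Cre recombinase that tamoxifen switches on, placed at Ccr2, to a Cre-dependent catalase aimed at mitochondria. The wt libraries (7) came from CD45.1 donors, and the labels give tamoxifen for all 14 libraries, so both groups share the drug, the irradiation and the disease. Catalase breaks down hydrogen peroxide, and the design asks what lowering mitochondrial oxidants does to these cells. The genotypes also differ in the donor marker, and only cells in which Ccr2 was active when tamoxifen was present could have switched the transgene on. The sources used here give no age or sex of the mice.

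Matrix metalloproteinases (MMPs) are zinc enzymes made as inactive proforms that cut collagens, elastin, laminins, cytokines and each other. Tissue inhibitors of metalloproteinases (TIMPs) block their active sites, and plasmin, formed by the urokinase that Plau encodes, can cleave several proforms. In encephalomyelitis such enzymes are known for opening the basement membranes around vessels through which leukocytes reach the tissue. Mmp8 and Mmp13 encode collagenases, Mmp12 the macrophage elastase, Mmp9 a gelatinase, Mmp14 a membrane-anchored enzyme that activates pro-MMP-2 with TIMP-2 as its adaptor, and Mmp19 a secreted enzyme expressed by myeloid cells among others. Adam8 encodes a membrane metalloproteinase-disintegrin of leukocytes.

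The genes lie on 7 chromosomes, and only Mmp8, Mmp12 and Mmp13 share a cluster, that of the MMPs on chromosome 9. Mmp12 and Mmp13 are adjacent there, and other MMP genes lie between them and Mmp8. The 120 bases before the start sites of these 3 genes and of both TIMP genes are given here because the 3 clustered genes share an array and the inhibitors took separate courses between libraries. They come from RefSeq on GRCm38.p6, an older build than the GRCm39 of the deposited values, and read 5′ to 3′ on the gene's own strand. Capitals mark matches to the AP-1 motif TGANTCA on either strand.
Mmp8 (chr9:7558309-7558428, plus strand): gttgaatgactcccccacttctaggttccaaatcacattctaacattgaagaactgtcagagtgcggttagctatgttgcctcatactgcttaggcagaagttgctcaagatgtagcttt
Mmp12, upstream start (chr9:7344277-7344396, plus strand): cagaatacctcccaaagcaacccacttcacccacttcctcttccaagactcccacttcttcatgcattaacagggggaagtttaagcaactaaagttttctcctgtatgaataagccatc
Mmp12, downstream start (chr9:7347254-7347373, plus strand): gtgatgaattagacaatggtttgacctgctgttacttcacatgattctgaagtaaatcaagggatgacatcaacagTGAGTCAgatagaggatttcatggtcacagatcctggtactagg
Mmp13 (chr9:7272394-7272513, plus strand): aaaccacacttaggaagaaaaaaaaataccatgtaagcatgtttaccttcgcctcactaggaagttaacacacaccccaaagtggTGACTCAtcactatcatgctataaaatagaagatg
Timp1 (chrX:20870046-20870165, plus strand): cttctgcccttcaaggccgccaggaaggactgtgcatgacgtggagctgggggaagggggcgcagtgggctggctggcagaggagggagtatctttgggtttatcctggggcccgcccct
Timp2 (chr11:118355412-118355531, minus strand): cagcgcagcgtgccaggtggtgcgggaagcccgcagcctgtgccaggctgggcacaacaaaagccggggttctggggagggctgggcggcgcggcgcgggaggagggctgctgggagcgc
Of the 10 genes, 7 had a promoter in the RefSeq table, in 8 windows that run from 250 bases before the start site to 50 after it. AP-1 letters stood in 2 of these windows, beginning at base -35 of Mmp13 and at base -44 of the downstream Mmp12 start, and 7.81% of the 32851 windows of all genes hold them. TATAAA, searched on both strands and with no letters shared with AP-1, stood in the windows of Mmp8, Mmp13 and the downstream Mmp12 start, against 13.6% of all windows. These matches began at base -3 of Mmp8, at -16 of Mmp13 and at 4, after the start site, of the downstream Mmp12 start. The clustered genes had windows of 38.7% to 46% GC, Timp1 of 55% and Timp2 of 68.7%, where the median of all windows was 52.7%. A match describes letters in a window and is not evidence of binding.

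The deposited values are log2 and hold no whole reads, so levels are given as normalised counts recovered from them (arbitrary units, comparable between libraries). Estimated depth ran from 27.4 to 47.0 M reads (M for mega) in mCAT libraries and from 16.5 to 43.3 M in wt libraries, a rough figure. Of all rows, 12096 had a normalised count of at least 10 in at least 7 libraries and were tested, and 9 of the 10 members were among them. Mmp9 was the exception. Library codes begin with C1 in 8 libraries (4 of each genotype) and with C2 in 6 (3 of each), and the labels do not say what the codes mark. Code and following number together make 8 stems, of which 6 hold 1 mCAT and 1 wt library and 2 hold 1 library each (mCAT 3 and wt 1). Partners of a stem resembled each other over all genes, as set out under the processing, so each comparison was also made with the stem taken into account. Libraries mCAT 6, mCAT 7, wt 6 and wt 7 stood apart on the first principal component, which held 34.5% of the variance, with wt 1 at the other end. The mouse catalase row, Cat, averaged 2831 ± 808 in mCAT and 2155 ± 626 in wt libraries (SD, n = 7 each; limma, adjusted p = 0.878), and the labels do not say whether that row counts the transgene.

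Levels per kilobase of the longest coding transcript put 4 proteases at the top. Mmp8 averaged 3813 normalised counts per kilobase over the 14 libraries, Mmp14 averaged 2990, Adam8 averaged 2763 and Mmp12 averaged 2280. Their ranges over libraries overlapped, the widest being that of Mmp8, 1209 to 12898.5 per kilobase. Timp1 followed at 863, Mmp19 at 505, Plau at 239 and Timp2 at 197 normalised counts per kilobase. Mmp13 was far lower, at 36.1, and Mmp9 came last at 6.01 per kilobase. Among the inhibitors Timp1 ranged from 177 to 2206 and Timp2 from 28.9 to 536 per kilobase.

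Of the 9 tested members, 8 varied more between stems than between partners of a stem. Both spreads are given as SDs on the log2 scale over the 6 pairs, the first of the pair means and the second within pairs. The second also counts a difference that all pairs share between mCAT and wt. Timp2 (1.18 between and 0.16 within) and Timp1 (1.15 and 0.16) were the clearest cases, followed by Adam8 (0.75 and 0.17) and Plau (0.64 and 0.17). Mmp8 (0.93 and 0.35), Mmp12 (0.91 and 0.29) and Mmp19 (0.77 and 0.46) also varied widely between pairs but differed more within them. For Mmp8 the value within pairs holds a difference of 1 direction, with mCAT above wt by 0.20 to 0.63 in all 6 pairs. Mmp13 had smaller SDs (0.31 and 0.19), but the deposited scale understates differences of low genes such as this one. Its normalised counts ranged 7.42-fold over the 14 libraries, against 4.52-fold for Adam8 and 18.5-fold for Timp2. Mmp14 went the other way, with 0.26 between and 0.44 within pairs. The median over all tested genes of the SD between pair means was 0.22, and that of the absolute difference between partners was 0.19. A genotype fit with the stem as a random effect put the correlation within stems at 0.51 over all tested genes. Variation between stems was thus not particular to the members, and the share of all genes that varied more between stems was not counted.

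**Figure D1:**
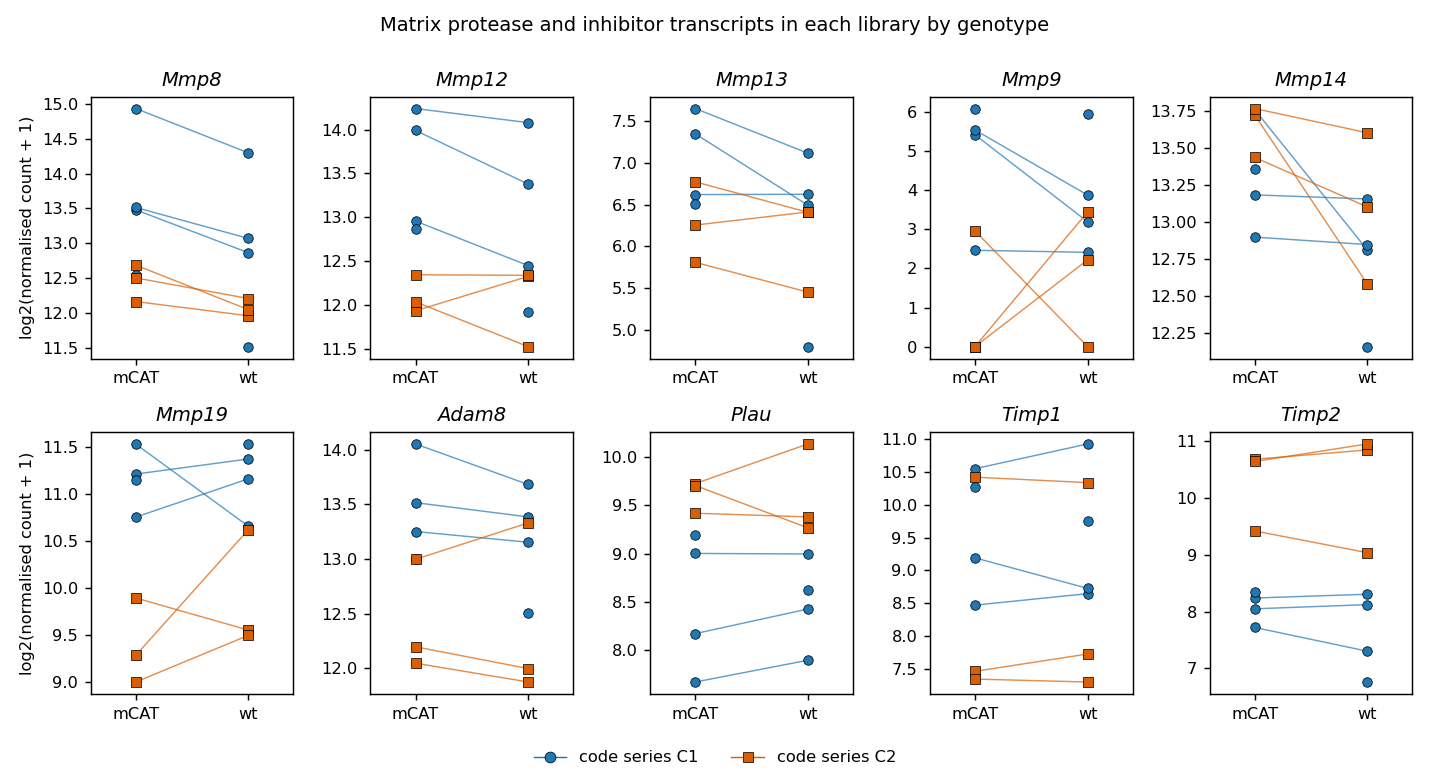
Each panel plots log2(normalised count + 1) of 1 gene in every library, mCAT left and wt right, with blue circles for code series C1 and orange squares for C2, and lines joining the partners of a code stem; axes differ between panels. Lines are short beside the spread between stems for Timp1 and Timp2, and all 6 Mmp8 lines run down from mCAT to wt.

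The first comparison asked whether these genes differed between mCAT and wt macrophages. No member passed the test (limma, 0 of 9, where 0.198% of all tested genes did), and 1 of the 9, Mmp14, had an unadjusted p under 0.05, as 5.37% of all tested genes had. The genotypes overlapped for every member, whereas they did not for 0.24% of all tested genes. The median log2 difference, mCAT minus wt, was 0.16 over the 9 members and 0.00 over all tested genes. With the code stem as a block, 1 of the 9 passed, the collagenase gene Mmp8, where 0.322% of all tested genes did. With the stem as a random effect 0 of 9 passed (limma, Mmp8 adjusted p = 0.456), where 0.372% of all tested genes did, and with a block by title number 0 of 9 passed as well (limma, Mmp8 adjusted p = 0.675). Title numbers in part join libraries of different stems, such as wt 1 and mCAT 1 (correlation -0.294), so that block cannot check the difference within stems. Bulk libraries cannot tell fewer cells of a type from less RNA per cell.

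Mmp8, named for the neutrophil collagenase and also made by macrophages, had a lowest value of 4591, a median of 6594 and a highest of 31279 in mCAT libraries, and 2932, 4731 and 20131 in wt libraries. The groups overlapped widely, with the C1_2 partners highest of all and the C2 partners low. Within every pair, however, the mCAT library was above its partner. It held 31279 against 20131 in wt for C1_2, 11428 against 7455 for C1_3 and 11702 against 8596 for C1_5. In C2 it held 4591 against 3985 for C2_1, 6594 against 4235 for C2_2 and 5808 against 4731 for C2_4. The ratios ran from 1.15 to 1.56, with a median of 1.45. Of all tested genes, 2.74% were higher in mCAT in 6 of 6 pairs.

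The unblocked difference of Mmp8 was 0.54 ± 0.44 (log2, SE; limma, adjusted p = 0.887). In the block fit Mmp8 rose by 0.47 ± 0.09 (limma, adjusted p = 0.0342). That call rested on all but 1 of the pairs: it was kept without C2_1 (adjusted p = 0.0190) and lost without any of the other pairs, at adjusted p from 0.0679 without C2_4 to 0.222 without C1_3. With the stem as a random effect, where the call was lost, the difference was 0.51 ± 0.25. Within C1 the difference was 0.67 and within C2 0.37, and neither passed (limma, adjusted p = 0.929 and 0.9999).

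Neutrophils carry Mmp8 and Mmp9, and the summed level of 15 neutrophil markers was set beside them. It ran from 6547 to 14803 in mCAT libraries and from 6775 to 9424 in wt libraries. Csf3r and S100a8 made up most of it in every library, and the mCAT library had the higher sum in 3 of 6 pairs. The library with the highest sum, mCAT 3, had an Mmp8 level of 5991, below the C1 median. The next sums, 9424 in wt 2 and 9398 in mCAT 1, belonged to the libraries highest in Mmp8. Within the list, S100a8 ran from 1733 to 4857 and the granule transcript Ngp from 0 in 4 libraries to 2909 in mCAT 3. Mpo, a myeloperoxidase gene of neutrophil precursors, did not exceed 8.58 in any library, and Ly6g did not exceed 30.1. No marker of the list passed between genotypes in any of the 3 fits (limma, 0 of 7 tested). Without the block none had an unadjusted p under 0.05, and with it 1 had, S100a8, which was lower in mCAT (-0.29 ± 0.10; limma, adjusted p = 0.455). The differences in the block fit lay above 0 for 5 of the 7, with a median of 0.09.

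Markers of other cells also differed between partners. Of 8 tested T cell markers, 6 had an unadjusted p under 0.05 without the block and 6 with it, as 5.37% and 9.23% of all tested genes had, and none passed after adjustment (limma). Cd3g, Cd3d, Cd2, Lck and Trbc2 were below their wt partner in all 6 mCAT libraries of a pair. The other tested markers, Cd3e, Cd4 and Il7r, were not below it in every pair. The share of all tested genes lower in mCAT in every pair was not counted. With the stem as a random effect 2 of the 8 passed as lower in mCAT, where 0.372% of all tested genes passed in either direction. Cd3g encodes a chain of the T cell receptor complex (20.1 ± 10.1 in mCAT and 61.1 ± 24.8 in wt libraries; limma, adjusted p = 0.0151). Lck encodes its kinase (55.2 ± 29.6 in mCAT and 140.8 ± 63.7 in wt libraries; limma, adjusted p = 0.0354). The summed T cell list went the other way, with mCAT above wt in 6 of 6 pairs, at 3251 to 8364 in mCAT and 2882 to 6662 in wt libraries. Il7r, the interleukin-7 receptor gene, made up most of that sum and was itself higher in mCAT in the block fit without passing (0.24 ± 0.08; limma, unadjusted p = 0.0105, adjusted p = 0.445). Of 12 tested macrophage and monocyte markers 8 had an unadjusted p under 0.05 in the block fit. In that fit 1 passed, where 0.322% of all tested genes did. This was Ccr2, the chemokine receptor gene at which Cre was placed in the mCAT donors, at 8391 ± 2975 in mCAT and 13742 ± 5015 in wt libraries (-0.80 ± 0.12 in the block fit; limma, adjusted p = 0.00587, and 0.0668 with the stem as a random effect). Differences in the block fit lay above 0 for 8 of the 12, with a median of 0.17. The sum of that list ran from 1311000 to 5364510 in mCAT and from 1335610 to 6228900 in wt libraries. Of 7 tested microglial markers 4 had an unadjusted p under 0.05 in the block fit and none passed. Most were lower in mCAT in that fit, with 1 of the 7 above 0 and a median of -0.26. The sum of the list does not show this. It ran from 4785.01 to 16746.7 in mCAT and from 3552.72 to 15720 in wt libraries, and Olfml3 alone reached 11493 in mCAT 6. The part of neutrophils, T cells, macrophages and microglia in the Mmp8 difference was not tested.

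Mmp9, the gelatinase gene, was close to the limit of detection. Its values were 67.2, 45.7, 41.9, 6.78 and 4.52 in 5 mCAT libraries and at the table's floor, listed at 0, in mCAT 5 and mCAT 7. In wt libraries they were 61.2, 13.7, 9.91, 8.15, 4.32 and 3.66, with wt 6 listed at 0. A level of 3 reads corresponds to 2.37 to 7.87 normalised counts, depending on the library, so the low values amount to a few reads each. The library highest in Mmp9, mCAT 3, also had the highest sum of neutrophil markers, and wt 1, next in Mmp9, had a sum of 8815, below 5 other libraries. Single markers varied. S100a9 was highest in the libraries highest in Mmp9, at 1286 in mCAT 3, 303 in mCAT 4, 272 in wt 1 and 170 in mCAT 1. Library wt 1 also held the most Ly6g (30.1), while Ngp and Ltf were listed at 0 in it. The part of neutrophils in the Mmp9 values was not tested.

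Mmp14 was the member with the smallest unadjusted p between genotypes in the fit without the block. It averaged 11412 ± 2467 in mCAT and 7950 ± 2515 in wt libraries (SD, n = 7 each), a difference of 0.54 ± 0.19 that did not pass (limma, unadjusted p = 0.0118, adjusted p = 0.878). Its values ran from 7639 over a median of 11093 to 13946 in mCAT, and from 4575 over 7378 to 12449 in wt libraries. The mCAT library was higher in 6 of 6 pairs, with ratios of 1.93 in C1_3 and 2.21 in C2_2 and of 1.02 to 1.26 in the other pairs. In the block fit the difference was 0.44 ± 0.14 (limma, adjusted p = 0.390). It was 0.55 within C1 and 0.54 within C2.

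Mmp12 and Mmp13, of the same chromosome 9 cluster as Mmp8, were less regular. Mmp12 ran from 3928 over a median of 7469 to 19326 in mCAT and from 2961 over 5194 to 17291 in wt libraries. Its ratio of mCAT to wt was 1.53, 1.42 and 1.12 in the C1 pairs and 0.763, 1.42 and 1.004 in the C2 pairs, and the difference was 0.33 ± 0.42 (limma, adjusted p = 0.919). Mmp13 ran from 55.1 over 97.4 to 199.7 in mCAT and from 26.9 over 84.2 to 137.6 in wt libraries. Its ratio was above 1 in 4 of 6 pairs, from 0.896 to 1.82, and the difference was 0.26 ± 0.18 (limma, adjusted p = 0.878).

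Mmp19, Adam8 and Plau did not pass either. Mmp19 averaged 1635 ± 957 in mCAT and 1800 ± 885 in wt libraries (difference -0.20 ± 0.40; limma, adjusted p = 0.955), and its pair ratios scattered from 0.395 in C2_2 to 1.83 in C1_5. Adam8 averaged 9103 ± 4357 in mCAT and 8125 ± 3606 in wt libraries (0.16 ± 0.33; limma, adjusted p = 0.956), with mCAT above wt in 5 of 6 pairs at ratios of at most 1.29. Plau averaged 564 ± 250 in mCAT and 555 ± 292 in wt libraries (0.02 ± 0.28; limma, adjusted p = 0.994). Its pair ratios lay between 0.753 and 1.35.

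The inhibitors were close in partners. Timp1 averaged 768 ± 583 in mCAT and 756 ± 660 in wt libraries, and the difference was 0.04 ± 0.53 (limma, adjusted p = 0.994). Its pair ratios lay between 0.770 and 1.38. With the block the difference was -0.03 ± 0.11 (limma, adjusted p = 0.943). Timp2 averaged 719 ± 638 in mCAT and 745 ± 812 in wt libraries (0.16 ± 0.57; limma, adjusted p = 0.978), and in the block fit the difference was 0.01 ± 0.11 (adjusted p = 0.984). Its pair ratios lay between 0.807 and 1.34.

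**Figure D2:**
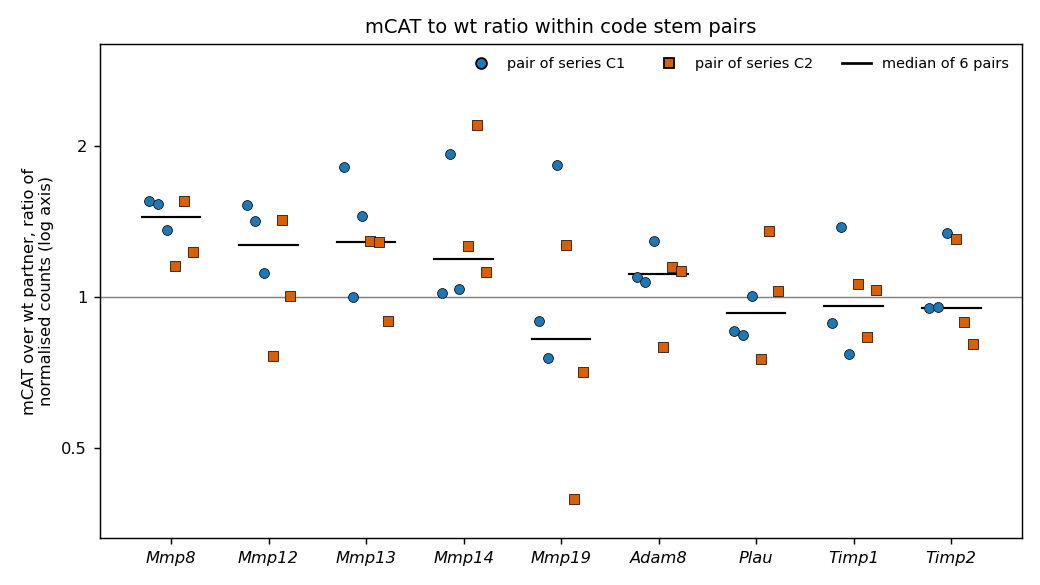
Points give the ratio of the mCAT to the wt normalised count within each of 6 code stems on a log axis, blue circles for C1 pairs, orange squares for C2 pairs and bars for the median. Mmp8 and Mmp14 lie above 1 in all 6 pairs, Mmp8 between 1.15 and 1.56 and Mmp14 between 1.02 and 2.21, while the other 7 genes have pairs on both sides.

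The second comparison set the code series against each other, with genotype as a covariate. Of the 9 tested members, 5 passed (limma), where 7.47% of all tested genes did. Mmp19, Mmp12 and Adam8 were higher in C1 than in C2 libraries, and Timp2 and Plau were lower. The remaining Mmp8, Timp1, Mmp13 and Mmp14 did not pass. The median C1 minus C2 difference was 0.86 over the 9 members and 0.01 over all tested genes. Partners of a stem resemble each other, and with the stem as a random effect 3 members passed, Mmp19, Timp2 and Plau, where 2.71% of all tested genes did. The same 3 passed with each stem reduced to 1 value, where 2% of all tested genes did. For these 3 the C1 and C2 libraries did not overlap, as for 2.25% of all tested genes, and they kept their call in each of the 22 fits that left out 1 library or 1 stem. Within mCAT libraries Mmp19 and Timp2 passed (limma, adjusted p = 0.0156 and 0.0213), as 0.67% of all tested genes did, and within wt libraries no member did (limma, 3 of 9 at an unadjusted p under 0.05), where 0.124% of genes passed. In that wt fit 1203 of 12096 genes had an unadjusted p under 0.05.

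Timp2 encodes the inhibitor that also serves as adaptor of MT1-MMP, the Mmp14 product, and it showed the largest difference of the set. C1 libraries ran from 107 over a median of 271 to 323, and C2 libraries from 525 over 1625 to 1986. The C1 mean was 244 ± 78.9 (SD, n = 8) and the C2 mean 1382 ± 620 (n = 6), 5.66 times as high. The C1 minus C2 difference was -1.98 ± 0.26 on the log2 scale (limma, adjusted p = 0.000377), and -2.01 ± 0.50 with 1 value per stem (limma, adjusted p = 0.0196). C2 itself was uneven: the C2_1 partners held 685 in mCAT 5 and 525 in wt 5, while the other 4 libraries lay between 1603 and 1986.

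Mmp19 ran the other way. C1 libraries held 1618 to 2972 with a median of 2339, and C2 libraries 513 to 1579 with a median of 738. The C1 mean of 2362 ± 506 was 2.76 times the C2 mean of 858 ± 383, a difference of 1.40 ± 0.19 (limma, adjusted p = 0.000470). The gap between the groups was narrow, since wt 4 of C1 held 1618 and wt 6 of C2 held 1579, while the other C2 libraries lay between 513 and 953. Exons of Mmp19 overlap those of Tmem198b on the opposite strand in GENCODE M21, and the unstranded libraries cannot assign reads from the overlap. Tmem198b averaged 269 ± 50.3 in C1 and 295 ± 61.6 in C2 (limma, adjusted p = 0.654).

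Plau, the urokinase gene, was lower in C1. Its values ran from 203 over 368 to 582 in C1 and from 615 over 758 to 1122 in C2 libraries. The C1 mean was 384 ± 140 and the C2 mean 794 ± 186, 2.07 times as high, and the difference was -0.90 ± 0.19 (limma, adjusted p = 0.00913).

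Mmp12 and Adam8 were higher in C1 but with overlap. Mmp12 averaged 11060 ± 5830 in C1 and 4444 ± 914 in C2 libraries, a 2.49-fold difference (1.13 ± 0.30; limma, adjusted p = 0.0312). In C1 it spanned 3898 in wt 1 to 19326 in mCAT 4, and in C2 2961 to 5217, so wt 1 fell inside the C2 range. Adam8 averaged 10669 ± 3378 in C1 and 5874 ± 2704 in C2 libraries, a 1.82-fold difference (0.89 ± 0.25; limma, adjusted p = 0.0363). In C2 the C2_1 partners, mCAT 5 at 8174 and wt 5 at 10292, lay at the C1 level and the other 4 between 3757 and 4696.

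Neither of these calls held when the stem was counted. As a random effect it gave an adjusted p of 0.0989 for Mmp12 and 0.0974 for Adam8 (limma), and with 1 value per stem 0.376 and 0.378. Leaving out 1 library ended the Mmp12 call for 7 of 14 (wt 2, wt 4, mCAT 4, wt 6, mCAT 6, wt 7 and mCAT 7), up to an adjusted p of 0.0822 without wt 6. It ended the Adam8 call for these and for mCAT 1, wt 3 and mCAT 2, up to 0.108 without wt 7. Exons of Mmp12 overlap Mmp1b, and those of Adam8 overlap Gm16201, on the opposite strand.

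Among the members that did not pass, Mmp8 averaged 12439 ± 9159 in C1 and 4991 ± 1005 in C2 libraries (1.002 ± 0.35; limma, adjusted p = 0.0913), and passed without wt 1, the lowest library of all (1.23, adjusted p = 0.0288). Mmp14 averaged 8699 ± 2743 in C1 and 10991 ± 3025 in C2 (-0.34 ± 0.18; limma, adjusted p = 0.253). Mmp13 averaged 113 ± 52.8 in C1 and 75.0 ± 23.3 in C2 (0.26 ± 0.17; limma, adjusted p = 0.384). Mmp9 was between 4.32 and 67.2 in C1 libraries and between 0 and 9.91 in C2 libraries, where 3 of 6 were listed at 0. With no filter on low values its difference was 0.66 ± 0.19 (limma, adjusted p = 0.0586).

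**Figure D3:**
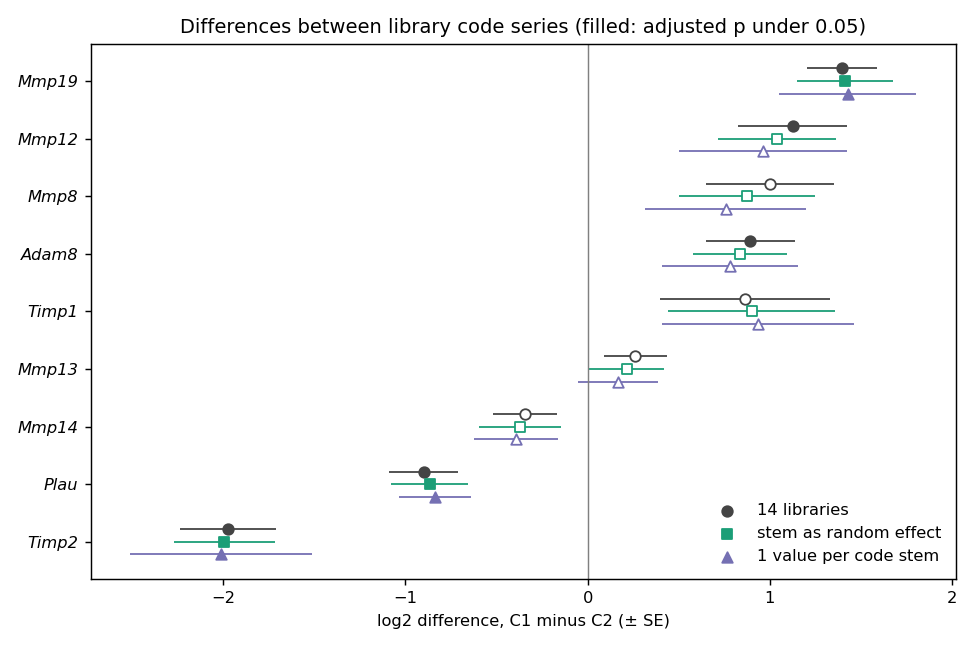
Markers give the C1 minus C2 log2 difference of 9 genes and bars its standard error, in the fit of 14 libraries (black circles), with the stem as a random effect (green squares) and with 1 value per stem (purple triangles); filled markers passed at an adjusted p under 0.05. Mmp19, Plau and Timp2 are filled in all 3 fits, Mmp12 and Adam8 only in the fit of 14 libraries.

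The 2 inhibitors together divided the libraries by stem. Timp1 ran from 353 over 721 to 1948 in C1 and from 156 over 193 to 1371 in C2 libraries, and the difference of 0.86 ± 0.47 did not pass (limma, adjusted p = 0.274). Its C2 libraries were split, with mCAT 5 at 1371 and wt 5 at 1294 while the other 4 lay between 156 and 210. Without stem C2_1 the difference was 1.65 and passed (limma, adjusted p = 0.00578). The ratio of Timp1 to Timp2 per kilobase was 5.62 to 52.3 in C1 libraries. In C2 it was 8.41 in mCAT 5 and 10.4 in wt 5, and 0.330 to 0.479 in the partners of C2_2 and C2_4. Per kilobase, Timp2 was above Timp1 in those 4 libraries, the same 4 that stood apart on the first principal component, and below it in the other 10.

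**Figure D4:**
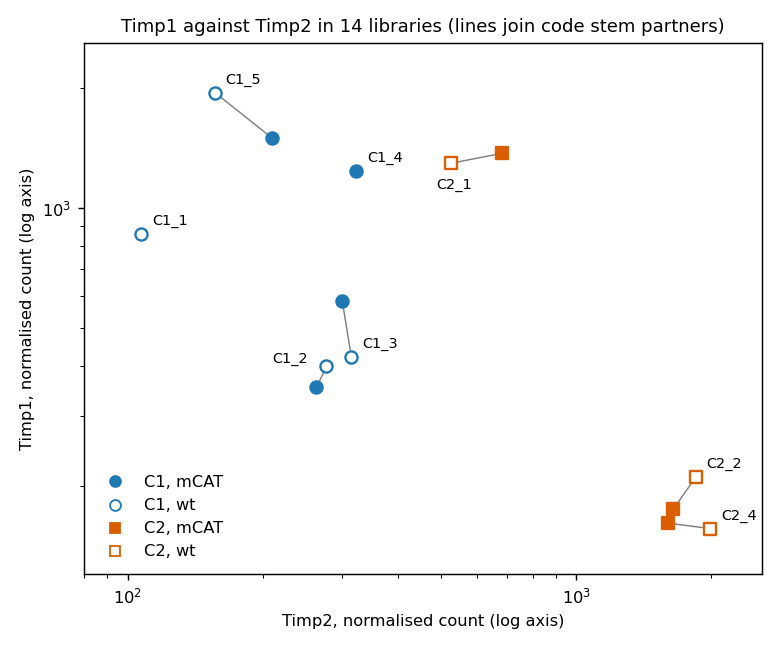
Each point is 1 library placed by its normalised counts of Timp2 and Timp1 (both log axes), filled for mCAT and open for wt, blue circles for C1 and orange squares for C2, with lines joining partners and code stems written beside them. Stems C2_2 and C2_4 sit at high Timp2 and low Timp1, stem C2_1 lies near the C1 level of Timp1, and partners lie close together.

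The third comparison asked whether the genotype difference itself varied between the code series. No gene passed (limma, 0 of 12096, or 0% of all tested genes, of which 103 had an unadjusted p under 0.05), and no member had an unadjusted p under 0.05. The estimates for members were imprecise in this fit without the stem, such as 0.30 ± 0.72 for Mmp8 and 0.11 ± 0.96 for Timp1 on the log2 scale. With the code stem as a block they were 0.19 ± 0.18 and -0.013 ± 0.23, and no gene passed.

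The rest of the protease system was described with 5 further lists. The lists hold 3, 1, 7, 10 and 12 tested genes. None of these passed between genotypes in either fit (limma). Without the block 2 had an unadjusted p under 0.05, as 5.37% of all tested genes had, both among the 7 of the ADAM list. These were Adam9 (5069 ± 884 in mCAT and 3686 ± 963 in wt libraries, adjusted p = 0.878) and Adam15 (4853 ± 473 in mCAT and 4027 ± 692 in wt libraries, adjusted p = 0.878), membrane metalloproteinase-disintegrins like Adam8. Adam17, the sheddase of tumour necrosis factor, followed at 0.42 ± 0.20 (limma, adjusted p = 0.878). Among other MMPs, Mmp25, Mmp2 and Mmp27 had the smallest p, and Mmp25 stood at -0.23 ± 0.23. Timp3, the only other inhibitor tested, averaged 55.2 ± 41.9 in mCAT and 34.1 ± 16.9 in wt libraries (0.20 ± 0.19). In the plasminogen list Plgrkt, S100a10 and Serpinb2 came first, at -0.23, -0.40 and -0.40. Among activators and partners Cd44 (0.33), Itgav (-0.28) and Lcn2 (0.44) came first, and none of these differences passed.

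Between the code series, 4 genes of the plasminogen list passed. Of 10 tested, 3 passed as higher in C1, where 3.16% of all tested genes did, and 1 as lower, where 4.31% did. Plaur, the urokinase receptor gene, averaged 43994 ± 10959 in C1 and 23361 ± 4977 in C2 libraries, with no overlap (0.90 ± 0.17; limma, adjusted p = 0.00450). Plau, its ligand's gene, was lower in C1. Anxa2, a plasminogen-binding annexin, was 1.67 times and Thbd, thrombomodulin, 2.15 times as high in C1 (limma, adjusted p = 0.0218 and 0.0258). Serpine2, a protease inhibitor that acts on urokinase, was 2.20 times as high in C2 (limma, adjusted p = 0.0275). With the stem as a random effect only Plaur and Anxa2 of these 4 passed.

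Other MMPs were few. Of 17 listed, 15 were rows of the table and 3 were tested, and Mmp2, the gelatinase that MT1-MMP and TIMP-2 activate together, was lower in C1. It averaged 349 ± 155 in C1 and 1658 ± 1332 in C2 libraries (-1.65 ± 0.39; limma, adjusted p = 0.0179), and passed with the stem counted either way. Mmp3, Mmp10 and Mmp1a, secreted enzymes of the chromosome 9 cluster, were listed at 0 in most libraries and did not exceed 5.57. None of 7 tested ADAM and ADAMTS genes passed (limma, 1 with an unadjusted p under 0.05, as 2912 of all 12096 genes had), and Timp3 did not pass either (0.16 ± 0.20).

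Of 12 tested activators and binding partners, 2 passed as higher in C1, where 3.16% of all tested genes did, and 1 as lower, where 4.31% did. Lcn2, which encodes the lipocalin that stabilises MMP-9, averaged 541 ± 330 in C1 and 124 ± 61.6 in C2 libraries (1.36 ± 0.32; limma, adjusted p = 0.0170). Furin, a convertase that activates proforms of membrane-type MMPs, averaged 10927 ± 4082 in C1 and 5654 ± 2210 in C2 libraries (0.94 ± 0.24; limma, adjusted p = 0.0273). Cd63, the tetraspanin that binds TIMP-1, was 2.82 times as high in C2 (-1.48 ± 0.31; limma, adjusted p = 0.00867). With the stem as a random effect Furin no longer passed, and with 1 value per stem neither Furin nor Cd63 did.

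Cell type markers moved with the code series. All 12 markers of macrophages and monocytes were detected and tested, and 4 were lower in C1 (Apoe, Lyz2, Adgre1 and Cd68; limma), where 4.31% of all tested genes were. Their summed level was 1311000 to 2200380 in C1 and 2658750 to 6228900 in C2 libraries, dominated by Lyz2 and Apoe. Of 7 tested microglial markers 4 were lower in C1 (Olfml3, Gpr34, Sparc and Tmem119), and the summed list ran from 3552.72 to 6033.83 in C1 and from 8539.64 to 16746.7 in C2 libraries. Tmem119 was detected in every library, at 550 to 2008 in C1 and 2204 to 3500.3 in C2. Among neutrophil markers Cxcr2 was higher in C1 (limma, adjusted p = 0.00777). Its values were low, 11.2 to 50.7 in C1 and 0 to 9.37 in C2 libraries, the latter near the limit of detection. The summed neutrophil list ran from 7426 to 14803 in C1 and from 6547 to 9206 in C2 libraries. Markers of dendritic cells (Flt3 and Zbtb46, of 8 tested) and of endothelium (Flt1, of 4 tested) also passed as higher in C1, where 3.16% of all tested genes did, while none of 8 tested T cell markers did. Fibroblast and pericyte markers summed to 265 at most, with Col1a1 at 6.29 or less. With the stem as a random effect Apoe, Lyz2, Olfml3, Gpr34 and Cxcr2 still passed, while Adgre1, Cd68, Sparc, Tmem119, Flt3, Zbtb46 and Flt1 did not. With 1 value per stem Lyz2, Olfml3, Gpr34 and Sparc passed, Slc2a5 was added, and the other calls were lost. The part of these cell types in the differences of Timp2, Plau, Mmp19, Mmp12, Adam8 and Mmp2 was not tested.

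Genes most like each member over the 14 libraries, by Pearson's r of the deposited values, are given as a description, since partners share a stem. Timp2 followed Fabp4 (r = 0.98), Apoe (0.98) and Ctsf (0.97), a lipid chaperone, a lipid carrier and a lysosomal protease. Timp1 followed Usp18 (0.98), Ube2l6 (0.96) and Phf11b (0.96), of which the first 2 encode the protease and the conjugating enzyme of the interferon-induced modifier ISG15. Plau followed Nfkbiz (0.90), Gadd45b (0.89) and Nfkbia (0.88), which are induced by NF-kappaB. Adam8 followed the proteasome gene Psmd11 (0.96), Furin (0.96) and Ube2j1 (0.95). Mmp8 followed Def6 (0.95), Thbd (0.93) and Ecm1 (0.93), and Mmp12 followed Tnfrsf26 (0.96), P2ry10b (0.92) and Aifm2 (0.91). Mmp13 followed Ptger2 (0.91), Rexo2 (0.88) and Sdc1 (0.88), Mmp14 followed Cyb561a3 (0.93), Acp2 (0.93) and Gpc1 (0.92), and Mmp19 followed Rchy1 (0.92), Mlxip (0.89) and Srsf5 (0.89). No member was among the 3 genes most like another.

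Between members, 36 correlations were computed over the 8 stems and none passed the Benjamini-Hochberg threshold. The largest was that of Mmp19 with Timp2 (r = -0.90, rho = -0.90, exact permutation tests, unadjusted p = 0.00570 and 0.00456, adjusted p = 0.122 and 0.130), and r was -0.95 without the 2 stems farthest from the median. Only genotype means were removed beforehand, and Mmp19 and Timp2 differed between the code series in opposite directions. Their correlation is therefore not independent of that result. Mmp12 with Mmp13, its neighbour, had r = 0.86 and rho = 0.88 (exact permutation tests, unadjusted p = 0.00677 and 0.00724, adjusted p = 0.122 and 0.130), with r = 0.60 without 2 stems. C1 holds 5 stems and C2 holds 3, too few for values within a series.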

How the data were processed

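RNA from sorted macrophages was made into libraries with Smart-seq2, per the labels' protocols, a method that keeps no strand information. FastQC, fastp, Salmon and GRCm39 are named in the submitters' processing notes, with no versions or annotation. The deposited values are log2 values that the authors had already normalised, of the form of a variance-stabilising transformation, with 5.9641 as the value shared by all libraries at the floor. Undoing its closed form, with the constant taken from that floor, gave the normalised counts. The size of 1 read was estimated from the low values, of which 58.3% to 79.5% lay within 0.15 of a whole number (chance 30%), so whole reads were not recovered and depth is approximate.

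The members, lists and comparisons were chosen with earlier results of these data known. Genes with a normalised count of at least 10 in at least 7 libraries were tested on the deposited values with limma 3.58.1 (R 4.3.3, statmod 1.5.0; trend and robust moderation), 2-sided, with Benjamini-Hochberg adjustment over the 12096 genes and a threshold of 0.05. Log2 differences on this scale understate those of low genes. The procedure was tested on simulated data, with the outcome not given here. The simulated code series held no stem effects, so that run cannot show false calls of the series fit without the stem. Means, SDs, folds and ratios are of normalised counts. Named genes were all members, every gene of the 5 other protease lists that passed a comparison, otherwise the 3 of smallest p between genotypes, and the 3 genes most correlated with each member. Exceptions chosen after their values were seen are Cat, Tmem198b, Mmp3, Mmp10, Mmp1a and the marker genes. 1 gene of the marker lists is not reported here and is left out of their counts and sums.

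Nothing in the labels says that libraries of a group came from separate hosts, so p-values measure the spread between libraries, which may be technical. The wt title without a number was taken as wt 1. Deviations from group means correlated between the partners of all 6 stems (0.232 to 0.659; partners were each other's best match in 5), so the stem, read from the library codes, was taken to pair libraries. Alternatives were other filters, scales, centring, variance models, pairings and left-out libraries or stems. Fits that left out a stem, reduced stems to 1 value or left out a pair were added after the data were seen.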

Additional observations from a re-analysis of the deposited data

How the results depend on the processing

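The count of genes passing between genotypes was 24, and became 39 with the replicate block by code stem, 45 with the stem as a random effect, 15 within C1 and 9 within C2. It was 25 with a replicate block by title number, which pairs other libraries in 3 cases (correlations -0.294, 0.158 and 0.252). Leaving out a library, or a pair in the block fit, gave 18 to 37 genes and 0 to 1 members, and the block gave 1 member. Between code series 903 genes passed. That count was 328 with the stem as a random effect, 242 with 1 value per stem, 81 within mCAT and 15 within wt libraries, and 184 to 2201 without 1 library or stem. Members passing were 5, and became 3, 3, 2 and 0 under those 4 settings and 3 to 6 without 1 library or stem. The interaction stayed at 0 genes in every setting run.

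Signs near 0 turned round. Between genotypes Plau was -0.049 with the block, -0.012 with the random effect and -0.049 over the 12 paired libraries, Timp1 was -0.030 with the block and over the 12 libraries and -0.023 within C2, and Timp2 was -0.041 within C2. In the interaction with the block Mmp14 was -0.20, Plau -0.13 and Timp1 -0.013. Without 1 library or pair, genotype differences ran from -0.012 to 0.32 (Adam8), -0.37 to 0.035 (Mmp19), -0.13 to 0.19 (Plau), -0.18 to 0.31 (Timp1) and -0.090 to 0.46 (Timp2). Interactions ran from -0.20 to 0.55 (Adam8), -0.24 to 0.26 (Mmp14), -0.16 to 0.75 (Mmp8), -0.22 to 0.22 (Plau), -0.64 to 0.92 (Timp1) and -0.031 to 0.90 (Timp2). The causes were not tested. The lowest Mmp9 values amount to a few reads each, wt 7 is the shallowest library, and the part of depth was not tested.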
